A study of Mus musculus with 5 samples.

Results

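The downstream flank of Cebpa is the stretch of mouse chromosome 7 that runs from the end of Slc7a10 to 1 Mb on the telomeric side of the Cebpa promoter viewpoint. Its members were chosen by position, without regard to read counts, as all windows of 2000 bp with a start from 35202001 to 36116001 (mm10). These were 458 windows, of which 393 were listed with reads in at least 1 of 4 libraries, against 29870 windows listed in at least 1 library genome-wide. The middle of the nearest window lay 85.4 kb from the viewpoint at position 35117574, and that of the farthest 999 kb.

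In 4C-seq, chromatin is cross-linked, cut and religated, and whatever was joined to a viewpoint is amplified from it and sequenced, so that reads mark stretches of the genome that lay near the viewpoint in the nucleus. Contacts of any viewpoint thin out with genomic distance, and local excesses over that decay are read as candidate loops or as shared domains. Cebpa encodes a transcription factor that, together with PPARγ, drives the terminal differentiation of fat cells and is switched on during adipogenesis.

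The cells were 3T3-L1, an established line of mouse embryo preadipocytes, so a single cultured line stands for the cell type. The first group, 3T3-L1-PRE (preadipocytes), held undifferentiated cells, with 2 libraries. The second group, 3T3-L1-AD (adipocytes), held 2 libraries from cells at day 7 of adipogenic induction, after 48 h in an MDI cocktail of dexamethasone at 2 μg/mL, IBMX at 0.5 mM and insulin at 10 μg/mL, and then insulin alone at 10 μg/mL. The sample titles carry the term mRNA-Seq, but the protocol and the deposited tables describe 4C-seq, and the counts are taken as such. The labels number the replicates but do not say whether they came from separate cultures, so p-values here measure only the spread between these libraries.

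The question asked of the flank was whether its contacts with the Cebpa promoter differed between preadipocytes and adipocytes. Depth differed between libraries, with 9453610 and 16888137 reads in preadipocyte replicates 1 and 2 and 6535263 and 10173531 reads in adipocyte replicates 1 and 2. Reads on chromosome 7, without the window with the most reads, came to 7511100 and 13475767 in preadipocytes and to 4723106 and 7249626 in adipocytes, and normalised reads below are reads per 1000000 of these. The flank held 646754 and 1371206 reads in preadipocytes and 341892 and 549271 reads in adipocytes.

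The flank took a smaller share of chromosome 7 reads in both adipocyte libraries than in either preadipocyte library. The share was 8.611% (95% Wilson interval 8.591% to 8.631%) in preadipocyte replicate 1 and 10.18% (10.16% to 10.19%) in preadipocyte replicate 2. It was 7.239% (7.215% to 7.262%) in adipocyte replicate 1 and 7.577% (7.557% to 7.596%) in adipocyte replicate 2. These intervals allow for counting error alone, because reads amplified by PCR carry no molecular identifiers and several may stem from 1 molecule. The adipocyte mean was 0.789 of the preadipocyte mean, with no overlap between the groups (two-sided exact permutation test, p = 0.333, n = 2 and 2). With 2 libraries a group, 0.333 is the smallest p that this test can give. The order turned when nearby reads left the denominator: of the reads over 100 kb from the viewpoint, the flank took 13.8% and 16.1% in preadipocytes and 16% and 17% in adipocytes, a ratio of 1.1 (exact p = 0.667). It also turned in the signal normalised by the authors, with a ratio of 1.04 (exact p = 0.667).

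The centromeric side of the viewpoint served as the comparison. The 458 windows at the same distances upstream (34118001 to 35034000) took 24.42% (24.39% to 24.45%) and 24.23% (24.2% to 24.25%) of the reads in preadipocytes and 20.34% (20.31% to 20.38%) and 20.23% (20.21% to 20.26%) in adipocytes. The flank thus held fewer reads than its mirror image in every library. The ratio of flank to mirror reads was 0.353 and 0.42 in preadipocytes and 0.356 and 0.374 in adipocytes, and here the groups overlapped (exact permutation test, p = 1, n = 2 and 2). The upstream share, too, was lower in both adipocyte libraries, at 0.834 of the preadipocyte mean (exact p = 0.333).

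Coverage of the flank was denser in preadipocytes. Windows were listed with reads in 253 of 458 positions (55.2%) in preadipocyte replicate 1 and in 373 (81.4%) in preadipocyte replicate 2, against 117 (25.5%) and 218 (47.6%) in adipocytes. The files listed no window below a library's own lowest count, so an unlisted window could hold up to 12 reads in preadipocyte replicate 1, up to 10 in preadipocyte replicate 2 and up to 1 in adipocytes. At a common minimum of 13 reads, 253 and 372 windows were covered in preadipocytes and 110 and 111 in adipocytes, so that the adipocyte mean was 0.354 of the preadipocyte mean (exact permutation test, p = 0.333). At 1000 reads, 151 and 242 windows were covered in preadipocytes and 75 and 77 in adipocytes. The upstream mirror had the same order at 13 reads, with 408 and 450 windows in preadipocytes and 234 and 243 in adipocytes, a ratio of 0.556.

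Adipocyte reads were piled on fewer windows. The flank's 10 deepest windows took 20.1% and 14.9% of its reads in preadipocytes and 38.0% and 32.9% in adipocytes. The longest run of unlisted windows spanned 20 and 6 windows in preadipocytes and 47 and 40 windows in adipocytes. Of all flank windows, 239 were listed in both preadipocyte libraries and 95 in both adipocyte libraries, and 90 of these were listed in all 4 libraries. A further 65 windows were listed in none. At 13 reads the windows covered in both replicates were 239 in preadipocytes and 63 in adipocytes, and 61 windows were covered in all 4 libraries. The q-values that the authors deposited gave no flank window at 0.05 or less in any library, and the lowest was 1.

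Windows covered in every library crowded toward the viewpoint. Of the 61 windows with at least 13 reads in all 4 libraries, 5 of 8 possible lay within 100 kb of the viewpoint, 35 of 50 between 100 and 200 kb and 12 of 50 between 200 and 300 kb. Each of the next 4 stretches of 100 kb held 1 to 3 of them, and from 700 kb to 1 Mb there were 0. Windows listed in no library had the opposite placement, with 16, 24 and 19 in the last 3 stretches.

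The adipocyte libraries differed from each other in their low counts. Adipocyte replicate 2 listed 107 flank windows with at most 12 reads, against 7 in adipocyte replicate 1, and its median listed window held 14.5 reads, against 1750 in adipocyte replicate 1 and 1571 and 1817 in preadipocytes. Of those 107 windows, chosen after values were seen, 106 (99.1%) were also listed in preadipocyte replicate 2, 80 (74.8%) in preadipocyte replicate 1 and 29 (27.1%) in adipocyte replicate 1. Their counts followed those of preadipocyte replicate 2, at a median of 1.15 reads per 1000 reads there (quartiles 0.857 and 1.56) and a rank correlation of 0.629 across 106 windows, which are neighbours in 1 library and not replicates. Against preadipocyte replicate 1 the median was 2.92 per 1000 and the rank correlation 0.167. Against adipocyte replicate 1, over the 29 windows listed there, the median was 2.63 per 1000 and the rank correlation 0.524. Outside the flank, 1422 of 3245 such windows (43.8%) were listed in preadipocyte replicate 2, with a median of 2.34 reads per 1000. The cause of these low counts was not tested. Counts of adipocyte coverage are therefore given below at 13 reads or more as well.

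Adipocyte coverage lay mostly on the windows that were deepest in preadipocyte replicate 2. Of 177 windows with at least 2000 reads in preadipocyte replicate 2, 94 and 160 were listed in adipocyte replicates 1 and 2, and 91 and 83 held at least 13 reads. Of 65 windows with 1000 to 1999 reads there, 5 and 30 were listed, and 4 and 8 held at least 13. Of 131 listed windows with fewer, 14 and 25 were listed, and 12 and 18 held at least 13. Adipocyte replicate 2 thus listed most of the deepest windows, many of them with at most 12 reads, and adipocyte replicate 1 left more of them unlisted. Of 104 windows with at least 2000 reads in preadipocyte replicate 1, 64 and 90 were listed in adipocyte replicates 1 and 2, and 63 and 59 held at least 13 reads. The classes of deep windows differ in size, so these counts do not compare the concentration between the preadipocyte replicates.

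Coverage also followed the number of fragment ends that could be read. A readable end runs from a DpnII site (GATC) to the nearest NlaIII site (CATG), and the flank's windows held a mean of 6.7 such ends. Windows with at least 13 reads made up 39.2% and 70.4% of the 125 windows with 1 to 4 ends in preadipocytes, and 68.2% and 86.4% of the 88 windows with 10 or more. In adipocytes the same shares were 13.6% and 16.8%, and 31.8% and 33.0%. Distance went along with reads more closely than the number of ends did, with rank correlations across the 458 windows of -0.745 and -0.812 in preadipocytes and -0.517 and -0.647 in adipocytes. For the number of ends they were 0.25 and 0.234 in preadipocytes and 0.141 and 0.18 in adipocytes.

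Contacts fell off steeply across the flank in every library. Mean normalised reads per window between 100 and 200 kb were 727 and 808 in preadipocytes and 729 and 800 in adipocytes, so that the states lay close together there on this scale. Between 200 and 300 kb they were 356 and 461 in preadipocytes and 208 and 187 in adipocytes. Between 300 and 400 kb they were 172 and 214 in preadipocytes and 134 and 47.0 in adipocytes. Between 400 and 500 kb they were 144 and 164 in preadipocytes and 75.4 and 80.6 in adipocytes. In those middle distances, 200 to 500 kb, both adipocyte libraries were below both preadipocyte libraries on this scale. The direction turned with the scaling, since the log2 fold changes of these 3 stretches were -0.26, -0.56 and -0.15 with edgeR (TMM) and 0.47, 0.14 and 0.58 with DESeq2. Between 100 and 200 kb the log2 fold change was 0.83 with edgeR and 1.56 with DESeq2, so the closeness there also depended on the scaling. Mean normalised reads between 500 and 600 kb were 82.2 and 101 in preadipocytes and 68.6 and 160 in adipocytes. Between 600 and 700 kb they were 49.9 and 73.5 in preadipocytes and 113 and 52.9 in adipocytes. The groups overlapped in both. Between 700 and 800 kb they were 9.73 and 33.5 in preadipocytes and 5.22 and 0.331 in adipocytes, and adipocytes were the lower. Between 800 and 900 kb, at 8.85 and 18.8 against 3.37 and 20.5, the groups overlapped. Between 900 kb and 1 Mb they were 4.47 and 12.9 in preadipocytes and 17.3 and 17.5 in adipocytes, and adipocytes were the higher.

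The far means rested on single windows in adipocytes and, in places, in preadipocyte replicate 1. In adipocyte replicate 1, 1 window held 99.2%, 100% and 99.8% of the reads of the last 3 stretches of 100 kb. In adipocyte replicate 2 these shares were 85.0%, 79.5% and 64.7%. In preadipocyte replicate 1 they were 73.0%, 39.6% and 31.5%, so that its stretch between 700 and 800 kb also rested largely on 1 window. In preadipocyte replicate 2, whose reads were spread over more windows, they were 12.3%, 14.8% and 20.1%.

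The slope of log10 mean reads per window on log10 distance, over 10 bins of 100 kb, summarised the decay. It was -2.29 and -1.84 in preadipocytes and -2.02 and -2.20 in adipocytes, with r2 of 0.871, 0.901, 0.739 and 0.566 in the same order. The mean difference, adipocytes minus preadipocytes, was -0.04, within the spread between replicates (exact permutation test, p = 1, n = 2 and 2). Its sign turned to 0.18 without preadipocyte replicate 2 and to 0.05 without adipocyte replicate 2. Upstream, at mirrored distances, the slopes were -1.25 and -1.13 in preadipocytes and -1.26 and -1.31 in adipocytes, so the flank's decay was the steeper side in every library.

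Reads fell in every library in the region of Zfp507, the last protein-coding gene of the flank. It encodes a zinc finger protein, and its outer edge lies at position 35803000. From the stretch between 600 and 700 kb to that between 700 and 800 kb, a pair chosen after values were seen, reads went from 18734 to 3656 in preadipocyte replicate 1 and from 49553 to 22570 in preadipocyte replicate 2. In adipocytes they went from 26683 to 1232 and from 19177 to 120. The drop was 5.12-fold and 2.2-fold in preadipocytes and 21.7-fold and 160-fold in adipocytes. Preadipocyte replicate 2 had a like fall nearer in, from 310647 reads between 200 and 300 kb to 143987 between 300 and 400 kb. In preadipocyte replicate 1, Zfp507 itself had 11.0 normalised reads per window, against 9.03 beyond it, so reads had fallen before its outer edge. In adipocytes the drop was a dip between single deep windows, as 1 window held 54.1% and 69.1% of the reads between 600 and 700 kb. The stretch between 800 and 900 kb then held 795 and 7415 reads and that between 900 kb and 1 Mb 4086 and 6331. In preadipocytes these stretches held 3322 and 12670 reads, and then 1679 and 8690. At the mirrored distances upstream there was no drop, with ratios of 0.979, 0.927, 0.462 and 0.39 in the same order of libraries.

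Beyond Zfp507, 157 windows without a protein-coding gene held 1.65% and 3.66% of the flank's reads in preadipocytes and 1.79% and 2.53% in adipocytes. At 13 reads or more, 28 and 81 of these windows were covered in preadipocytes and 3 and 6 in adipocytes. This outer zone, set at the end of Zfp507 after values were seen, had much the same density of DpnII sites as the 301 windows nearer to the viewpoint, with means of 4.93 and 4.86 sites per window. Its GC content was 45.9%, against 46.7%. Among the nearer windows, those inside protein-coding genes and those between them had like means, at 278 and 294 normalised reads per window in preadipocyte replicate 1, 330 and 309 in preadipocyte replicate 2, 229 and 265 in adipocyte replicate 1 and 256 and 200 in adipocyte replicate 2.

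The flank overlaps 14 protein-coding genes of the RefSeq annotation, taken here in order of distance. Over the windows of each gene, the mean normalised reads of both adipocyte libraries lay below those of both preadipocyte libraries for 6 genes and above them for 2, and overlapped for 6. Among 844 protein-coding genes of chromosome 7 with reads in at least 2 libraries, 53.6% were lower in both adipocyte libraries and 2.73% higher in both. The count of 6 lower genes was no larger a share than among these genes. A gene with reads in the preadipocyte libraries alone passes this filter and is lower by its selection, so this background is a description. The gene means themselves were not tested one by one. With reads over 100 kb from the viewpoint as the denominator, tried after seeing the data, 4 genes were lower (Rhpn2, Faap24, Cep89 and Slc7a9) and 4 higher (Dpy19l3 and Zfp507, with Wdr88 and Gpatch1). With all reads, or reads within 1 Mb, 8 were lower, with Lrp3 and Wdr88 added, and 2 higher. Wdr88 thus changed direction with the scaling, while Rhpn2, Faap24, Cep89, Slc7a9, Dpy19l3 and Zfp507 kept theirs under these 4 denominators. The shares of chromosome 7 genes above hold for normalised reads alone, so counts under the other denominators have no background beside them.

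At the genes nearest to the viewpoint the states overlapped in normalised reads. Under some of the other denominators each of these genes was lower or higher in adipocytes, as given above. Gpatch1 still overlapped with all reads and with reads within 1 Mb, and Lrp3 with reads over 100 kb from the viewpoint. Lrp3, of the LDL receptor family, had 1053 and 929 normalised reads per window in preadipocytes and 589 and 932 in adipocytes. Wdr88, a gene for a WD repeat protein, had 863 and 973 in preadipocytes and 890 and 880 in adipocytes. Gpatch1, whose product carries a G-patch domain found in RNA-processing proteins, had 612 and 717 in preadipocytes and 530 and 720 in adipocytes. Each of these ranges overlapped, and Wdr88 and Gpatch1 share windows because the genes overlap.

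Of the next 5 genes out, 4 were lower in adipocytes. Rhpn2 had 329 and 442 normalised reads per window in preadipocytes and 241 and 187 in adipocytes. Faap24, of the Fanconi anaemia DNA repair complex, had 372 and 759 in preadipocytes and 0 and 161 in adipocytes. Cep89, a centrosomal protein of cilia formation, had 337 and 344 in preadipocytes and 133 and 85.9 in adipocytes. For these 3 genes the groups did not overlap, but Faap24 rests on 3 windows and shares 35392001 with Rhpn2 and 35396001 with Cep89, so they are not separate counts. Slc7a9, the light subunit of a transporter for cystine and dibasic amino acids, had 181 and 217 in preadipocytes and 80.7 and 1.27 in adipocytes. Tdrd12, a Tudor domain protein of the germline piRNA pathway, had 160 and 196 in preadipocytes and 180 and 96.6 in adipocytes. Tdrd12 overlapped between the states, although it lies next to Slc7a9, which did not.

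At 441 and 468 kb the low order held for a pair of small genes, but not with reads over 100 kb from the viewpoint as the denominator. Nudt19, a peroxisomal coenzyme A hydrolase, had 166 and 195 normalised reads per window in preadipocytes and 159 and 22.8 in adipocytes. Rgs9bp, which anchors a regulator of G-protein signalling in photoreceptors, had 119 and 217 in preadipocytes and 82.9 and 96.9 in adipocytes. Nudt19 in adipocyte replicate 1 was nearly level with preadipocyte replicate 1, and in adipocytes Rgs9bp rested on 1 window, 35582001, with 100% and 99.0% of the gene's reads. Ankrd27, an endosomal protein that activates Rab21, had 84.0 and 131 in preadipocytes and 67.1 and 181 in adipocytes. Pdcd5, linked to programmed cell death, had 48.2 and 136 in preadipocytes and 0.476 and 369 in adipocytes. The adipocyte libraries thus stood on either side of the preadipocyte libraries at both Ankrd27 and Pdcd5.

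The last genes of the flank were the higher ones. Dpy19l3, a C-mannosyltransferase of the endoplasmic reticulum, had 79.4 and 78.0 normalised reads per window in preadipocytes and 93.0 and 102 in adipocytes. Zfp507 had 11.0 and 67.2 in preadipocytes and 298 and 141 in adipocytes. In adipocytes 1 window supplied most of each gene's reads, with 11636 of 15813 and 16009 of 26585 reads for Dpy19l3 and 14442 of 22483 and 13243 of 16356 for Zfp507, and it was a different window in each replicate. Coverage had the opposite order, since 15 and 32 of the 36 windows of Dpy19l3 held at least 13 reads in preadipocytes, against 3 and 5 in adipocytes. For Zfp507, 4 and 14 of 16 windows did in preadipocytes and 3 in each adipocyte library.

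Windows at gene starts had means close to those of other windows in 3 of the 4 libraries. The 13 windows that hold a protein-coding start had means of 287 and 353 normalised reads in preadipocytes and 23.3 and 261 in adipocytes, against 281, 324, 246 and 245 for the other 288 windows as far as Zfp507. With at least 13 reads, 12 and 13 of these windows were covered in preadipocytes and 3 and 4 in adipocytes. The low mean of adipocyte replicate 1 at gene starts was not shared by adipocyte replicate 2.

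The overlap of covered windows was larger in number within preadipocytes, where more windows were covered. Both preadipocyte libraries held at least 13 reads in 239 windows, which were 94.5% and 64.2% of the windows covered in replicates 1 and 2, and the rank correlation of reads across them was 0.672. The adipocyte libraries shared 63 windows, 57.3% and 56.8% of those covered, with a rank correlation of 0.242. Between states, the rank correlations over shared windows were 0.286 to 0.347 and so not below that within adipocytes. Overlap shares grow with the number of windows covered, so they do not compare the states, and neighbouring windows are not independent.

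The windows with the most reads lay, with a single exception, within 147 kb of the viewpoint. Preadipocyte replicate 1 was highest at the intergenic window 35228001, with 21372 reads there, against 11960 in preadipocyte replicate 2 and 2623 and 2834 in adipocytes. Preadipocyte replicate 2 was highest at 35250001, in introns of Wdr88 and Gpatch1, with 27969 reads, against 11671 in preadipocyte replicate 1 and 912 and 5575 in adipocytes. Adipocyte replicate 1 was highest at the intergenic window 35218001, just past the start of Lrp3, with 18014 reads, against 14492 in adipocyte replicate 2 and 13639 and 14418 in preadipocytes. No library shared its top window with another. Adipocyte replicate 2 was highest at 35234001, at the start of the lncRNA Gm38989, with 23876 reads, against 2644 in adipocyte replicate 1 and 1006 and 16869 in preadipocytes. The window 35264001, in introns of Wdr88 and Gpatch1, was among the top 3 of adipocyte replicate 2 and high throughout, with 6991 and 18834 reads in preadipocytes and 12655 and 20399 in adipocytes. The exception was 35798001 in Zfp507, 681 kb from the viewpoint, with 14442 reads in adipocyte replicate 1, 0 in adipocyte replicate 2 and 0 and 587 in preadipocytes.

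A local peak was taken as a window with at least 13 reads, at least 5 times the mean of the 25 windows on either side, and the most reads within 5 windows on either side. There were 13 and 5 peaks in preadipocytes and 16 and 19 in adipocytes. Preadipocyte peaks lay far out, beginning 535 and 799 kb from the viewpoint, while adipocyte peaks began at 231 and 223 kb. Beyond Zfp507 lay 10 of 13 and 5 of 5 peaks in preadipocytes, and 3 of 16 and 5 of 19 in adipocytes. A window passes these limits more easily where coverage is sparse. Between 200 and 300 kb, 47 and 50 of 50 windows held at least 13 reads in preadipocytes, against 18 and 22 in adipocytes. The numbers and positions of peaks therefore do not compare where contacts peak in the states. The median peak held 3708 and 5898 reads in adipocytes and 566 and 1366 in preadipocytes. Since reads fell off steeply with distance and the peaks of the states lay at different distances, these medians do not compare peak sizes between the states.

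Few peaks recurred between replicates. A peak in the same or an adjacent window of both replicates was found once in preadipocytes and at 2 places in adipocytes, 3 in all. With a limit of 3-fold over the local mean there were 7, and with the same window alone there was 1, in preadipocytes. The preadipocyte count went to 0 with a limit of 8-fold and with a local mean over 10 windows a side. Across states, preadipocyte replicate 1 shared 1 peak with adipocyte replicate 1 and 3 with adipocyte replicate 2, while preadipocyte replicate 2 shared 0 with either. Peaks that fell where the other replicate of the state listed no reads, in that window or its neighbours, numbered 0 of 13 and 4 of 5 in preadipocytes and 6 of 16 and 9 of 19 in adipocytes.

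The recurrent preadipocyte peak was the intergenic window 35988001, 871 kb from the viewpoint. It held 295 and 1287 reads in preadipocytes, 5.32 and 5.85 times the local mean, and 0 and 2 reads in adipocytes. Both its neighbours were unlisted in both preadipocyte libraries, so the peak was 1 window wide there. The adjacent window 35986001 held 340 reads in adipocyte replicate 2 and 0 in the other 3 libraries, so that library had reads beside the peak.

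The nearer adipocyte peak lay in Rhpn2, 251 and 253 kb out, in adjacent windows. Window 35368001, in an intron, held 8827 reads in adipocyte replicate 1, 11.5 times the local mean, but 10 reads in adipocyte replicate 2 and 3077 and 9977 in preadipocytes. Window 35370001, which holds an exon, held 16965 reads in adipocyte replicate 2, 16.7 times the local mean, against 1913 in adipocyte replicate 1 and 840 and 6293 in preadipocytes. The replicates therefore peaked in different windows, and preadipocyte replicate 2 was covered in both without a peak.

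The farther adipocyte peak lay in Zfp507, 669 and 671 kb out. Window 35786001 held 5933 and 2886 reads in adipocytes and 0 and 460 in preadipocytes, and was a peak in adipocyte replicate 1, at 14.3 times the local mean. Window 35788001 held 0 and 13243 reads in adipocytes and 0 and 822 in preadipocytes, and was the peak in adipocyte replicate 2, at 229 times the local mean. At 35786001 both adipocyte libraries thus stood above both preadipocyte libraries, whereas 35788001 was high in adipocyte replicate 2 alone.

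Beyond 200 kb, 5 windows held at least 1000 reads in all 4 libraries, and they are named here after values were seen. Window 35714001, in Dpy19l3, held 6822 and 3240 reads in preadipocytes and 11636 and 2935 in adipocytes, and was a local peak in replicate 1 of each state, at 12.4 and 139 times the local mean. Window 35624001, in Ankrd27, held 3083 and 2088 reads in preadipocytes and 3001 and 3467 in adipocytes. Window 35582001, in Rgs9bp, held 1100 and 3365 reads in preadipocytes and 1566 and 2782 in adipocytes. These 3 windows, 465, 507 and 597 kb from the viewpoint, were the farthest of the 5. The other 2 were 35340001 in Rhpn2, with 3692 and 9801 reads in preadipocytes and 3072 and 10251 in adipocytes, and 35400001 in Cep89, with 6247 and 8171 in preadipocytes and 1936 and 5036 in adipocytes.

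Fragment ends are shown for the recurrent preadipocyte peak and for a pair of Zfp507 windows with high adipocyte counts, since these windows have few ends. Each runs from the DpnII site, GATC, inward to the nearest NlaIII site, CATG, with both sites in capitals, and is read from the RefSeq reference of GRCm38 (mm10). The reading primer matched chr7:35117558-35117577 on the plus strand, in the intergenic stretch before Cebpa, and ends in the DpnII site of the viewpoint. The files give reads per window and not per end, so which end was read is not known. Window 35988001 has 1 DpnII site and 2 ends, intergenic, at chr7:35988742-35988878 (minus strand) and chr7:35988875-35988943 (plus strand). Window 35786001 has 4 ends, of which the 3 of at least 30 bases are shown, in introns of Zfp507, at chr7:35786409-35786440 (minus strand), chr7:35786748-35787005 (plus strand) and chr7:35787011-35787040 (plus strand). Window 35798001 has 1 DpnII site and 2 ends, in introns of Zfp507, at chr7:35798350-35798503 (minus strand) and chr7:35798500-35798645 (plus strand).
Reading primer: atctggcccagagagcGATC
Intergenic window 35988001 end 1: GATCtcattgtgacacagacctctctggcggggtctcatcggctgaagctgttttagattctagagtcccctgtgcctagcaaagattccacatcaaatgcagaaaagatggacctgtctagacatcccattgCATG
Intergenic window 35988001 end 2: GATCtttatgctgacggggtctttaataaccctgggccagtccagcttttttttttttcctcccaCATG
Zfp507 window 35786001 end 1: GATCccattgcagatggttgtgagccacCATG
Zfp507 window 35786001 end 2: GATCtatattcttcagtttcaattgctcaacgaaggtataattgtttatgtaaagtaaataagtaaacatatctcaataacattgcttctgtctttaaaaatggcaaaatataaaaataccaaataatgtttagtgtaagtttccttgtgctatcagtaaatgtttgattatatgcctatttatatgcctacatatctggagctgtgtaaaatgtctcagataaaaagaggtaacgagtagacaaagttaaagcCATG
Zfp507 window 35786001 end 3: GATCaatggagcaacttgtccaggctCATG
Zfp507 window 35798001 end 1: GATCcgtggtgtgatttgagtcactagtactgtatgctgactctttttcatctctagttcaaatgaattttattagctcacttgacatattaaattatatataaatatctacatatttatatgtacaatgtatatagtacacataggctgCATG
Zfp507 window 35798001 end 2: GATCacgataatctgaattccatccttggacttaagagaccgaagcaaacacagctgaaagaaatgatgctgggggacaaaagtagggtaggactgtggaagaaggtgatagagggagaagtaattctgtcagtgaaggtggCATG

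Single windows were compared between the states with edgeR, on the 1998 windows genome-wide that were listed in both replicates of either state. Of the flank, 244 windows entered and 214 did not, and a window that entered through preadipocytes alone was picked for its reads there, so the counts of called windows are a description. Both adipocyte libraries were unlisted in 56 of the 244 and held at most 3 reads in 79. At a false discovery rate of 0.01, 4 windows were called, all lower in adipocytes, which is 1.64% of those entered. Genome-wide 6.51% of windows were called lower, 7.21% higher and 13.7% in both directions, so the flank's share was below the background. At an unadjusted p of 0.05, 84 of the 244 flank windows passed, against 1278 of 1998 genome-wide. DESeq2 called 119 of the 244 at 0.01 (117 lower, 2 higher), against 69% of all windows by that tool.

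The 4 called windows had few reads in preadipocytes and none listed in adipocytes. Window 35912001, intergenic, held 45 and 17 reads in preadipocytes and 0 and 0 in adipocytes, which is at least 6.91-fold lower against a floor of 3 reads per adipocyte library. Window 35964001, intergenic, held 101 and 108 reads, at least 20.5-fold lower in adipocytes. Window 35866001, intergenic, held 32 and 217 reads, at least 19.4-fold lower. These 3 lie beyond Zfp507, between 749 and 847 kb, where adipocyte libraries had almost no coverage. The fourth, 35700001 in an intron of Dpy19l3 and named after values were seen, held 182 and 22 reads, at least 24.7-fold lower. Each limit uses the mean of both preadipocyte libraries. Normalised reads there were 24.2 and 1.63 at 35700001 and 5.99 and 1.26 at 35912001, so preadipocyte replicate 1 carried most of these limits. At 35866001 they were 4.26 and 16.1, so preadipocyte replicate 2 did. At 35964001 they were 13.4 and 8.01. All 4 entered the comparison through the preadipocyte libraries alone, so their adjusted p-values, 0.00482 to 0.00888, are no support for a difference. Many deeper windows were not called, and leaving out a library moved the number called to 8 without preadipocyte replicate 1, 0 without preadipocyte replicate 2, 32 without adipocyte replicate 1 and 7 without adipocyte replicate 2. Genome-wide these fits called 147, 3, 262 and 40 of 1998 windows, and among the flank windows called were 2, 0, 0 and 0 of the 4. The number was 0 with RLE size factors and 16 with library totals.

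No flank window was called higher in adipocytes by edgeR, 0 passed an unadjusted p of 0.05 in that direction, and DESeq2 called 2, against 248 of 1998 windows genome-wide. Without adipocyte replicate 1, edgeR called 6 higher, among 262 windows called genome-wide in both directions. The smallest p in that direction (0.0812) belonged to 35786001, the Zfp507 peak, with a log2 fold change of 5.63 (SE 3.23, adjusted p = 0.117). It entered through the adipocyte libraries alone, so its higher counts in 2 of 2 of them are a description, and the value was 4.44 to 15.31 without each library in turn and 9.30 with the replicate block. Window 35928001, intergenic, held 75 and 74 reads in preadipocytes and 0 and 5898 in adipocytes, with a log2 fold change of 6.58 (SE 3.79, adjusted p = 0.12). That value came from adipocyte replicate 2 alone, without which it was -8.97, while without adipocyte replicate 1 it was 7.58. With the replicate block it was 0.65, and it was 12.14 when every window listed in 2 or more libraries was tested. Window 35370001, in Rhpn2, had a log2 fold change of 2.82 (SE 1.87, adjusted p = 0.185), with 405 and 2340 normalised reads in adipocytes and 112 and 467 in preadipocytes, which overlap. That value was 0.35 without adipocyte replicate 2, 3.69 without adipocyte replicate 1, 1.51 without preadipocyte replicate 1 and 3.63 without preadipocyte replicate 2. It was 8.25 when every window listed in 2 or more libraries was tested. The median log2 fold change of the 244 flank windows was -4.46, against -8.24 over all 1998. Of the 244, 149 entered through the preadipocyte libraries alone and 5 through the adipocyte libraries alone. These medians therefore depend on how windows entered, and they are a description. Other scalings moved the median of all windows to -8.35 (RLE) and -8.79 (library totals).

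Summed over 100 kb, the flank did not give a called difference with edgeR. Of the 9 bins that lie wholly in the flank, 0 were called at a false discovery rate of 0.01, and 0% of the 994 bins of chromosome 7 were called. At an unadjusted p of 0.05, 0 of the 9 bins passed, against 275 of 994. DESeq2 called 1 of the 9, the bin between 600 and 700 kb that holds Zfp507, as higher in adipocytes (log2 fold change 1.76, adjusted p = 0.00798), against 38.6% of all bins in both directions and 8 of 994 called higher by that tool. That bin's normalised reads per window were 49.9 and 73.5 in preadipocytes and 113 and 52.9 in adipocytes, so the groups overlapped on that scale. The edgeR log2 fold changes of the 9 bins ran from -2.72 (700 to 800 kb) to 1.81 (900 kb to 1 Mb), and their median was 0.83, against -3.00 over all bins. Scaling moved the median of all bins to -2.29 with RLE size factors and to -3.82 with library totals. A bin entered with 10 reads in 2 or more libraries, thus also through preadipocytes alone, so the median over all bins is a description. Direction in the flank turned with it, as 5 bins were positive with TMM, 8 with RLE size factors and 3 with library totals.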

How the data were processed

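Chromatin was cut with DpnII and then NlaIII, and reads from the Cebpa promoter primer were counted in windows of 2000 bp. The authors trimmed reads with pipe4C, mapped them to mm10 with bowtie2 and deposited r3Cseq counts per window for each library. The deposited signal (RPMs), normalised by the authors, is not proportional to counts and was used only as an alternative. For every window the authors also deposited a p-value and a q-value, which r3Cseq computed within 1 library. The reading primer matched the mm10 reference exactly, and that position was taken as the viewpoint. Unlisted windows counted as 0. The 1 iWAT sample was not analysed, as it has no table of windows here.

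The members, lists and tests were chosen with earlier results of these data known. Counts were fitted across all windows, or all bins of chromosome 7 that reached 10 reads in 2 or more libraries, with edgeR 4.0.16 (quasi-likelihood test, TMM, Benjamini-Hochberg, false discovery rate 0.01) and, as an alternative, DESeq2 1.42.0, in R 4.3.3. Shares, slopes and counts per library were compared with two-sided exact permutation tests in scipy 1.17.1 (Python 3.11.15, numpy 2.4.6, pandas 2.3.3). Shares have 95% Wilson intervals. Named windows were the 3 with the most reads in each library, each peak found in both replicates and the 3 with the smallest edgeR p in each direction. Every protein-coding gene of the flank was named. Alternatives covered denominators, minimum counts, thinning to the smallest library, bin width, peak limits, scaling, tool, a replicate block and leaving out each library. The fits were tested on simulated data.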

Additional observations from a re-analysis of the deposited data

How the results depend on the processing

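The smaller adipocyte share of chromosome 7 reads kept its direction under 10 alternatives, and without each library in turn the ratio was 0.728 to 0.86. It reversed to 1.1 with reads over 100 kb from the viewpoint as the denominator and to 1.04 with the deposited signal. The lower number of listed windows kept its direction under all 8 alternatives run (ratios 0.352 to 0.696). Keeping only windows with a DpnII site could not move it, since 1 of 458 windows has no site, and left the ratio at 0.535. The difference in decay slope, -0.04, turned to 0.10 with 50-kb bins, 0.51 with medians over windows (2 bins were above 0 in adipocyte replicate 1), 0.59 with means over listed windows and 0.00 without windows within 100 kb, and was -0.27 to 0.18 without each library in turn. Recurrent peaks numbered 7 at 3-fold and 1 with the same window alone, against 3. There were 0 in preadipocytes and 2 in adipocytes at 8-fold, and 0 and 3 with a local mean over 10 windows a side.

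The number of windows called, 4, was 0 with RLE size factors (129 genome-wide), 16 with library totals (460), 119 with DESeq2 (1378), 0 with the replicate block (8), 0 when every window listed in 2 or more libraries was tested, 0 at a minimum of 100 reads in 2 or more libraries, 0 with counts under 13 reads set to 0 and 59 at a false discovery rate of 0.05 (1163 genome-wide). Without each library in turn it was 0 to 32 (3 to 262 genome-wide), and the lone library left in a state is then assumed to vary like the others. The 4 windows were also among those called with library totals and with DESeq2, and 2 of them among those called without preadipocyte replicate 1, but 0 of them were called without each other library, with RLE size factors, with the replicate block or under the other filters. The log2 fold change of window 35928001 was -8.97 to 7.58 without each library in turn, with -8.97 without adipocyte replicate 2. Of the 9 bins, DESeq2 called 1, and 0 were called with the replicate block and the other alternatives run. Genes lower in both adipocyte libraries numbered 4 to 8, and genes higher 2 to 4, under the denominators tried after seeing the data. The cause of these changes was not tested.

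Replicates of a state share only a number with those of the other, and the correlation of changes between replicate numbers, the check on the paired fit, was 0.00636 over windows and -0.087 over bins. With 2 libraries a state, few read-rich windows in adipocytes and list minimums that differ between libraries, a window unlisted in adipocytes was not detected at this depth, which does not show that contact was absent.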
